A study of Mus musculus with 32 samples.

Results

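The subject is a group of 9 genes of transforming growth factor-β (TGF-β) signalling in mouse kidney cortex. It holds the ligands Tgfb1, Tgfb2 and Tgfb3, the latent TGF-β binding proteins Ltbp1 and Ltbp2, the receptors Tgfbr1 and Tgfbr2, the signal transducer Smad3 and the inhibitor Smad7. The genes were chosen by their symbols, and all 9 were found among the 32544 genes of the count table. Bulk poly(A) RNA was sequenced from the isolated cortex of 32 mice, all aged 25 weeks and of the strain C57BL/6J-Col4a3tm1Dec, in 8 groups of 4. Control mice were Col4a3+/-, so that they also carried 1 null allele of this type IV collagen gene, and Alport mice, a model of the inherited kidney disease Alport syndrome, were Col4a3-/-. No group without the allele was measured. From 10 weeks of age the mice received vehicle, or nicotinamide riboside (NR), a precursor of NAD+, at 0.5% w/w of a purified diet. The groups were thus vehicle-treated and NR-treated control and Alport mice of each sex, with 1 library per mouse.

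Among male controls, the depth of a library lay at 21833587–27433134 total counts for those on vehicle and 19667200–26314137 for those on NR. For the male Alport groups it was 21451535–21763727 without NR and 18588229–23738769 with it. Female controls had 22371273–27778797 counts on vehicle and 16621944–22884023 on NR, and female Alport mice had 19281368–24978942 and 19916664–25963664. The genotype labels were checked on Col4a3. Its level, in CPM (the count as a share of the library's total, scaled by TMM, which sets a common scale from genes that change little), was 151–201 in vehicle-treated male controls and 54.6–83.2 in vehicle-treated male Alport mice, and 140–163 and 57.7–79.2 in the females. On NR it was 59.3–160 and 56.0–67.6 in male control and Alport mice, and 105–124 and 48.8–59.3 in the females. The transcript was thus lower in Alport mice without being absent, but in NR-treated males the genotypes overlapped and the difference did not pass (log2 fold change −0.63, adjusted p = 0.202). Male control NR replicates 1 (59.3 CPM) and 3 (75.2 CPM) lay within the range of vehicle-treated male Alport mice, while replicates 2 (94.1 CPM) and 4 (160 CPM) lay above it. Replicate 3 lay above every NR-treated male Alport mouse (56.0–67.6 CPM), and replicate 1 lay within their range. The paper states that genotyping was done by Transnetyx with quantitative PCR. Col4a3 alone does not settle the genotype label of replicates 1 and 3, and results that use the male controls on NR carry this limit. Other values of replicates 1 and 3 went both ways. Their Ltbp2 was 0.807 and 1.56 CPM (4.53–155 in NR-treated male Alport mice), and their macrophage markers summed to 97.0 and 90.3 CPM (189–959). Their injured tubule markers, at 1814 and 1586 CPM, lay below NR-treated male Alport mice (2985–10490.0) but above every vehicle-treated male control (524–664). Replicates 2 (1256 CPM) and 4 (719.9 CPM) also lay above every vehicle-treated male control. Most of this sum was Spp1, with 1298 of 1344 CPM in the mean of male controls on NR. The proximal tubule markers of replicate 1, at 9489.9 CPM, and of replicate 3, at 10633 CPM, lay inside and just above the NR-treated male Alport range (3204–10555), and Dcn, a fibroblast product, was at 40.5 and 33.5 CPM, near the lowest of those mice (40.8 CPM). Col4a3 was lower on NR in female controls (−0.38, adjusted p = 0.0154), and in male controls the value was −0.91 (adjusted p = 0.0675). Col4a4, a related collagen gene without the null allele, was also lower on NR in male (−0.81, adjusted p = 0.0272) and female controls (−0.32, adjusted p = 0.0194). Male control NR replicates 1 and 3 had 110 and 135 CPM of Col4a4. Both lay below the male Alport mice on vehicle (177–228 CPM) and on NR (151–191 CPM). The cause was not tested. The summed level of 8 proximal tubule markers was 3204–16511 CPM in every mouse of the series, and Slc34a1 was the most abundant of them, so that the labelled tissue was represented in each library.

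TGF-β is secreted in a latent form, bound to its own propeptide and, through that, to latent TGF-β binding proteins that anchor it in the matrix. Once released, the ligand binds the receptor encoded by Tgfbr2, which phosphorylates its partner Tgfbr1, and this in turn activates SMAD proteins such as SMAD3 that enter the nucleus. In the kidney, the pathway is known as a driver of fibrosis and of matrix synthesis by fibroblasts, and SMAD7 is a feedback inhibitor that acts on the receptors.

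Levels of different genes were compared after division by the length of their exons. In vehicle-treated male controls, in CPM per kilobase (mean ± SD, n = 4), the receptors led with 11.2 ± 0.658 for Tgfbr1 and 10.4 ± 0.371 for Tgfbr2. The SMAD genes followed, with 7.04 ± 0.389 for Smad3 and 6.78 ± 0.484 for Smad7. Within each of these pairs the means lay closer together than the sum of their SDs. Much lower were Tgfb1 at 1.85 ± 0.0705, Ltbp1 at 1.08 ± 0.173, Tgfb3 at 0.517 ± 0.0702, Tgfb2 at 0.314 ± 0.0944 and Ltbp2 at 0.134 ± 0.0519. Vehicle-treated female controls had the same order of means, from 11.2 ± 0.320 for Tgfbr1 to 0.254 ± 0.172 for Ltbp2.

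The order was another in vehicle-treated male Alport mice. Tgfbr2 led there with 20.01 ± 1.38 CPM per kilobase, ahead of Tgfbr1 at 12.6 ± 0.571. Smad3 (8.38 ± 0.745), Tgfb1 (8.20 ± 0.755) and Ltbp2 (8.09 ± 1.13) came next and did not differ beyond their spread. Smad7 stood at 6.07 ± 0.419. Tgfb3 (1.57 ± 0.430), Ltbp1 (1.32 ± 0.530) and Tgfb2 (1.11 ± 0.415) closed the order, again within their spread. Ltbp2 thus moved from the last place in controls to a level near that of Smad3.

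**Figure D1:**
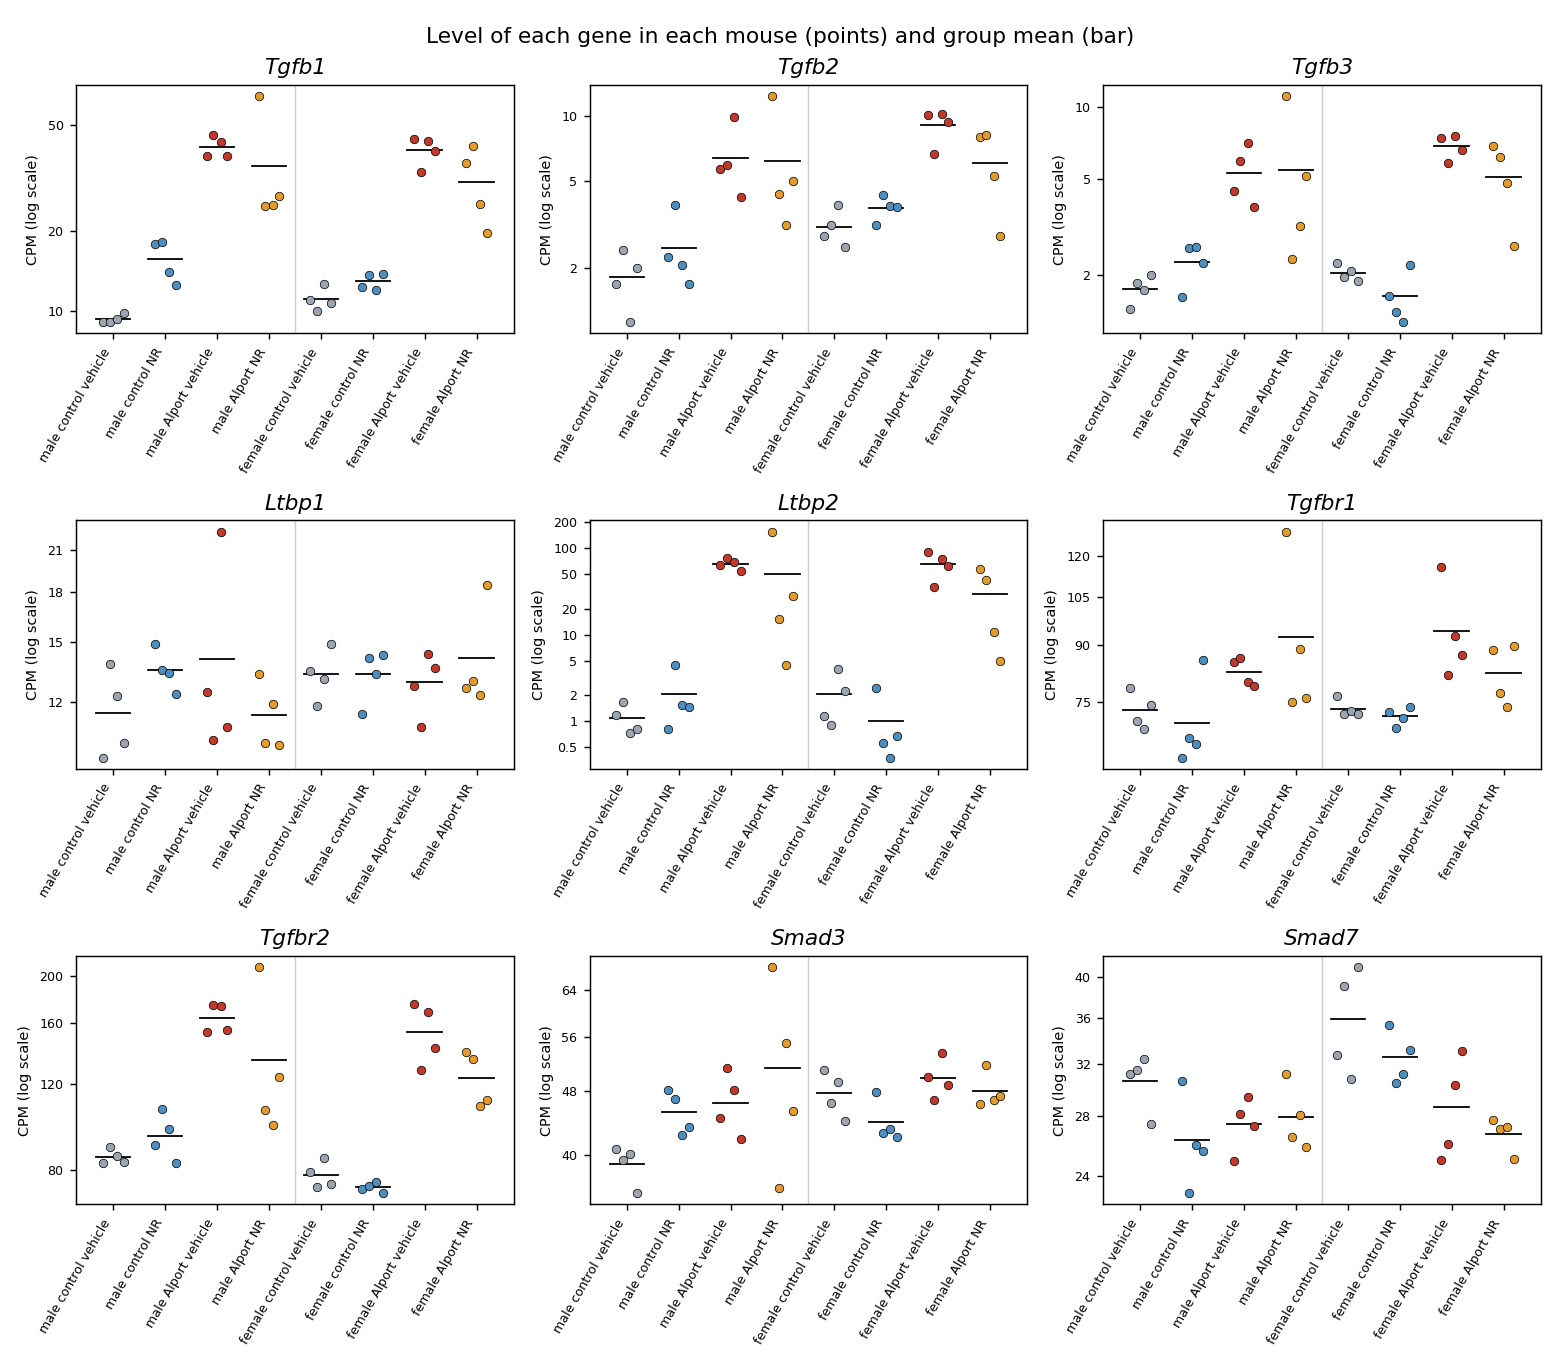
Level of each of the 9 genes (vertical axis, CPM on a log scale that differs between panels) in the 8 groups (horizontal axis), with 1 point per mouse and a bar at the mean of 4 mice. Tgfb1, Tgfb2, Tgfb3, Ltbp2, Tgfbr2 and, by a small gap, Tgfbr1 separate vehicle-treated Alport from control mice in both sexes, and the highest point among NR-treated male Alport mice is replicate 1 in all 9 panels.

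The first question was how the 9 genes differ between Alport and control mice on vehicle. In males, 7 of the 9 were higher in Alport mice, all but Ltbp1 and Smad7, and none was lower. Of all 15286 genes tested, 51.0% passed the same threshold (adjusted p under 0.05 in edgeR), 26.8% as higher and 24.2% as lower. In females, 6 of the 9 were higher, the same ones without Smad3, and none was lower, beside 45.8% of 15709 genes tested, 24.0% higher and 21.8% lower. The median log2 fold change of the 9 genes was 1.03 in males and 1.01 in females. With library sizes left unscaled, the median of all genes moved to 0.34 in males and 0.26 in females, so changes are given relative to the TMM scale, on which it lay within 0.01 of 0. On the unscaled libraries the split of called genes went from 4093 higher and 3697 lower to 7741 and 1226 in males, and from 3768 and 3431 to 7085 and 1342 in females. Without scaling factors the fold changes move upward, so negative values smaller than about that shift can turn positive, while small positive values grow. The direction of such negative values therefore holds only on the TMM scale.

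Among the ligands, Tgfb1 encodes TGF-β1, the form most studied in fibrosis. Its level was 9.09, 9.10, 9.32 and 9.85 CPM in vehicle-treated male controls and 38.2, 46.0, 42.9 and 38.3 CPM in male Alport mice. In the females it was 11.01, 9.99, 12.6 and 10.7 CPM in controls and 44.3, 33.3, 43.6 and 39.9 CPM in Alport mice. The genotypes were far apart in both sexes, and the spread within groups was small next to the gap. The log2 fold change was 2.23 ± 0.0888 (SE; adjusted p = 1.09e-08) in males and 1.90 ± 0.109 (adjusted p = 6.43e-06) in females, with all 4 Alport mice above all 4 controls in each sex.

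Tgfb2 was measured at a lower level, 1.70, 2.44, 1.13 and 1.999 CPM in male controls against 5.71, 5.96, 9.85 and 4.22 CPM in male Alport mice. In females it stood at 2.83, 3.15, 3.92 and 2.51 CPM in controls and 10.05, 6.71, 10.2 and 9.32 CPM in Alport mice. No Alport mouse fell within the range of the controls of its sex, and male Alport replicate 3 was the highest of its group. The change was 1.90 ± 0.294 (log2, SE; adjusted p = 0.000226) in males and 1.58 ± 0.183 (adjusted p = 0.000116) in females. Tgfb3 was at 1.43, 1.84, 1.73 and 1.999 CPM in male controls and 4.46, 5.92, 7.06 and 3.83 CPM in male Alport mice. Its levels in females were 2.23, 1.95, 2.08 and 1.87 CPM in controls and 7.38, 5.81, 7.58 and 6.62 CPM in Alport mice. These groups did not overlap either, and male Alport replicate 3 was again the highest. The change was 1.69 ± 0.231 in males (log2, SE; adjusted p = 9.49e-05) and 1.79 ± 0.146 in females (adjusted p = 2.18e-05).

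Although the 3 ligands rose together, their proportions moved little. Tgfb1 made up 69.2% ± 3.36 (SD) of the summed CPM per kilobase of the ligands in males of the control group on vehicle, against 75.7% ± 4.66 in Alport males, with overlapping ranges. In females its share was 65.9% ± 1.80 and 69.0% ± 0.537, with ranges that lie close but do not overlap. The summed level of the ligands was 2.68 ± 0.176 CPM per kilobase in control males against 10.9 ± 1.43 in Alport males, and 3.33 ± 0.325 and 11.6 ± 1.51 in the females.

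The 2 latent TGF-β binding proteins behaved differently. LTBP-1 binds the latent complex of TGF-β covalently and directs it to the matrix, whereas LTBP-2 is a matrix protein of the same family that does not bind that complex. Ltbp2 was near the lower end of what is detected in vehicle-treated controls, at 1.17, 1.67, 0.740 and 0.809 CPM in males and 1.16, 0.901, 4.00 and 2.24 CPM in females. In Alport mice it stood at 63.6, 76.6, 69.6 and 54.9 CPM in males and 90.5, 35.9, 75.9 and 61.9 CPM in females. The lowest Alport mouse, female replicate 2, was still well above the highest control, female replicate 3. The change of Ltbp2 was 5.98 ± 0.196 (log2, SE; 63.0-fold, adjusted p = 5.57e-09) in males and 5.02 ± 0.411 (32.5-fold, adjusted p = 2.20e-05) in females. It had the largest fold change of the 9 genes in both sexes.

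Ltbp1 did not pass the test on the TMM scale. It ranged over 9.78–13.8 CPM in male controls and 10.4–22.5 CPM in male Alport mice, with a log2 fold change of 0.37 ± 0.229 (SE; adjusted p = 0.199) that was 0.05 without male Alport replicate 3. On unscaled libraries this male value was 0.73 and passed (adjusted p = 0.0274). In females the range was 11.8–14.9 CPM in controls and 10.9–14.3 CPM in Alport mice, and the log2 fold change of −0.00497 (adjusted p = 0.976) became 0.26 on unscaled libraries. As a share of the summed CPM per kilobase of both binding proteins, Ltbp2 went from 10.9% ± 3.15 (SD) in male controls to 86.1% ± 4.33 in male Alport mice. In females the shares were 16% ± 8.97 and 86.1% ± 3.85. The predominant transcript of the pair was thus Ltbp1 in every vehicle-treated control and Ltbp2 in every vehicle-treated Alport mouse.

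Of the receptors, Tgfbr2, which binds the ligand first, had the larger difference. It was at 82.4, 89.2, 85.3 and 83.1 CPM in vehicle-treated male controls and 154, 174, 173 and 155 CPM in male Alport mice. Female controls had 79.0, 73.7, 84.5 and 74.9 CPM, and female Alport mice 175, 128, 168 and 142 CPM. The groups were separate, and the level about doubled in both sexes. The log2 fold change was 1.03 ± 0.0732 in males (SE; adjusted p = 6.38e-07) and 1.01 ± 0.1002 in females (adjusted p = 5.06e-05).

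Tgfbr1, the signalling partner, changed less. It ranged over 68.6–78.3 CPM in male controls and 78.9–86.2 CPM in male Alport mice, and over 72.0–76.4 and 81.6–116 CPM in the females. These ranges nearly touch in males, and female Alport replicate 1 was the highest mouse. The change was 0.27 ± 0.0709 in males (log2, SE; adjusted p = 0.00815) and 0.40 ± 0.0958 in females (adjusted p = 0.00608). The ratio of Tgfbr2 to Tgfbr1, from CPM per kilobase, was 0.934 ± 0.0808 (SD) in control males against 1.59 ± 0.121 in Alport males, and 0.849 ± 0.0515 and 1.30 ± 0.105 in the females, without overlap of the genotypes.

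Of the SMAD genes, 1 passed on the TMM scale, in males. Smad3, the transducer, was at 35.9–40.7 CPM in vehicle-treated male controls and 41.8–51.2 CPM in male Alport mice, a change of 0.34 ± 0.0807 (log2, SE; adjusted p = 0.00423). In females it ranged over 44.0–50.9 and 46.8–53.5 CPM, and the change of 0.10 ± 0.0673 did not pass (adjusted p = 0.249). In 1 fit of all 32 mice, the male changes of Smad3 (0.25, adjusted p = 0.0676) and Tgfbr1 (0.18, adjusted p = 0.254) did not pass either.

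Smad7, the inhibitor, did not rise with the ligands. Its level was 31.2, 31.5, 32.4 and 27.5 CPM in male controls and 24.9, 28.2, 29.4 and 27.3 CPM in male Alport mice, and 32.8, 39.1, 30.8 and 41.1 CPM and 25.0, 26.0, 30.3 and 33.1 CPM in female controls and Alport mice. The genotypes overlapped in both sexes. The log2 fold change was −0.07 ± 0.0807 in males (SE; adjusted p = 0.477), with a reversed sign of 0.27 (adjusted p = 0.0289) on unscaled libraries, and −0.29 ± 0.115 in females (adjusted p = 0.0604), where unscaled libraries gave −0.03. In females it was called lower in 1 fit of all 32 mice (−0.33, adjusted p = 0.0112), with a replicate block (adjusted p = 0.0294) and without female control vehicle replicate 3 (adjusted p = 0.0335) or female Alport vehicle replicate 4 (adjusted p = 0.0286). On either scale Smad7 lay below the median change of all genes. The ratio of Smad3 to Smad7, from CPM per kilobase, was 1.04 ± 0.0289 (SD) in control males against 1.38 ± 0.108 in Alport males, without overlap. In females it was 1.10 ± 0.214 and 1.43 ± 0.176, with overlap.

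Markers of several cell types moved with these genes. In vehicle-treated Alport compared with control mice, all 8 macrophage markers rose in both sexes, 8 of 8 fibroblast markers in males and 7 in females, and 6 of 6 markers of injured tubule in both. All 8 proximal tubule markers fell in both sexes. The summed level of the macrophage markers, with Lyz2 the most abundant, was 74.8, 69.5, 92.3 and 89.2 CPM in male controls and 608, 589, 672 and 491 CPM in male Alport mice. In the females it was 92.4, 84.1, 153 and 101 CPM and 695, 387, 562 and 632 CPM. Alport mice were several times above controls, and female Alport replicate 2, the lowest in these markers, was also the lowest of its group in 8 of the 9 genes. The fibroblast markers, led by Pdgfrb, summed to 50.4, 62.9, 41.8 and 58.7 CPM in male controls and 241, 239, 317 and 189.6 CPM in male Alport mice, and to 78.4, 61.8, 101 and 108 CPM and 246, 184, 279 and 186 CPM in the females. No listed marker was at 0 in every mouse of the series. In bulk tissue, fewer or more cells of a type and less or more RNA per cell cannot be told apart, and the part of cell numbers in the changes of the 9 genes was not tested.

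The other marker lists were counted in the same way, and are to be read against the 26.8% of all genes called higher and 24.2% called lower in males and the 24.0% and 21.8% in females. Of 6 lymphocyte markers tested, 6 rose in males and 4 in females, and of 8 endothelial markers, 7 and 4. Of 6 podocyte markers, 5 rose in each sex, and of 4 markers of smooth muscle and pericytes, 1 and 2, the former no more than the share of all genes. Of 7 markers of the loop of Henle, distal tubule and collecting duct, 3 fell in each sex. Of 5 adipocyte markers, 0 could be tested in males and 1 in females, which did not pass. Their summed level was 0.395–4.94 CPM over the 32 mice.

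The second question was whether the genotype difference depends on sex. It was tested as an interaction in the 16 vehicle-treated mice. edgeR called 0 of the 9 genes, 2 of them at an unadjusted p under 0.05, and DESeq2 and limma-voom also called 0. Of 16152 genes tested, 0.532% passed. These 86 genes became 23 without female Alport vehicle replicate 4, 52 with RLE size factors, 5 in 1 fit of all 32 mice and 260 with DESeq2. The lowest adjusted p of the 9 was 0.262, for Tgfb1, whose Alport effect in females minus that in males was −0.37 ± 0.135 (log2, SE). For Ltbp2 the difference was −0.99 ± 0.547 (adjusted p = 0.512). The larger male changes of these genes were thus not shown to differ from the female ones.

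The sexes themselves were compared in vehicle-treated controls. Tgfb2 and Smad3 were higher in females, 2 of the 9 genes, beside 31.7% of all 14990 genes and 15.9% in this direction. The log2 fold change of Tgfb2 was 0.79 ± 0.254 (SE; adjusted p = 0.0329), and every female was above every male. This call was lost with a replicate block (adjusted p = 0.0593) and in 5 of the 8 fits without 1 mouse (adjusted p up to 0.0971). Smad3 was at 40.7, 39.4, 40.1 and 35.9 CPM in males and 50.9, 46.4, 49.3 and 44.0 CPM in females, a change of 0.31 ± 0.0710 (log2, SE; adjusted p = 0.00582), with all females above all males. Unscaled libraries moved the median of all genes from 0.02 to 0.19 and the split of called genes from 2386 higher and 2370 lower to 4621 and 1146. On that scale 6 of the 9 genes passed as higher in females, and Tgfbr2, at −0.10 with TMM, changed its sign to 0.07. In 1 fit of all 32 mice neither Tgfb2 (adjusted p = 0.154) nor Smad3 (adjusted p = 0.0762) passed. Other lists also differed between the sexes: 5 of 6 podocyte, 5 of 8 endothelial, 3 of 4 smooth muscle and pericyte, 3 of 6 injured tubule, 2 of 8 fibroblast and 2 of 8 macrophage markers were higher in females, and 2 of 8 proximal tubule markers were lower. Also higher in females were 9 of 16 TGF-β target genes and 7 of 14 genes for storage and activation, against the 15.9% of all genes. The part of these in the levels of Tgfb2 and Smad3 was not tested.

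**Figure D2:**
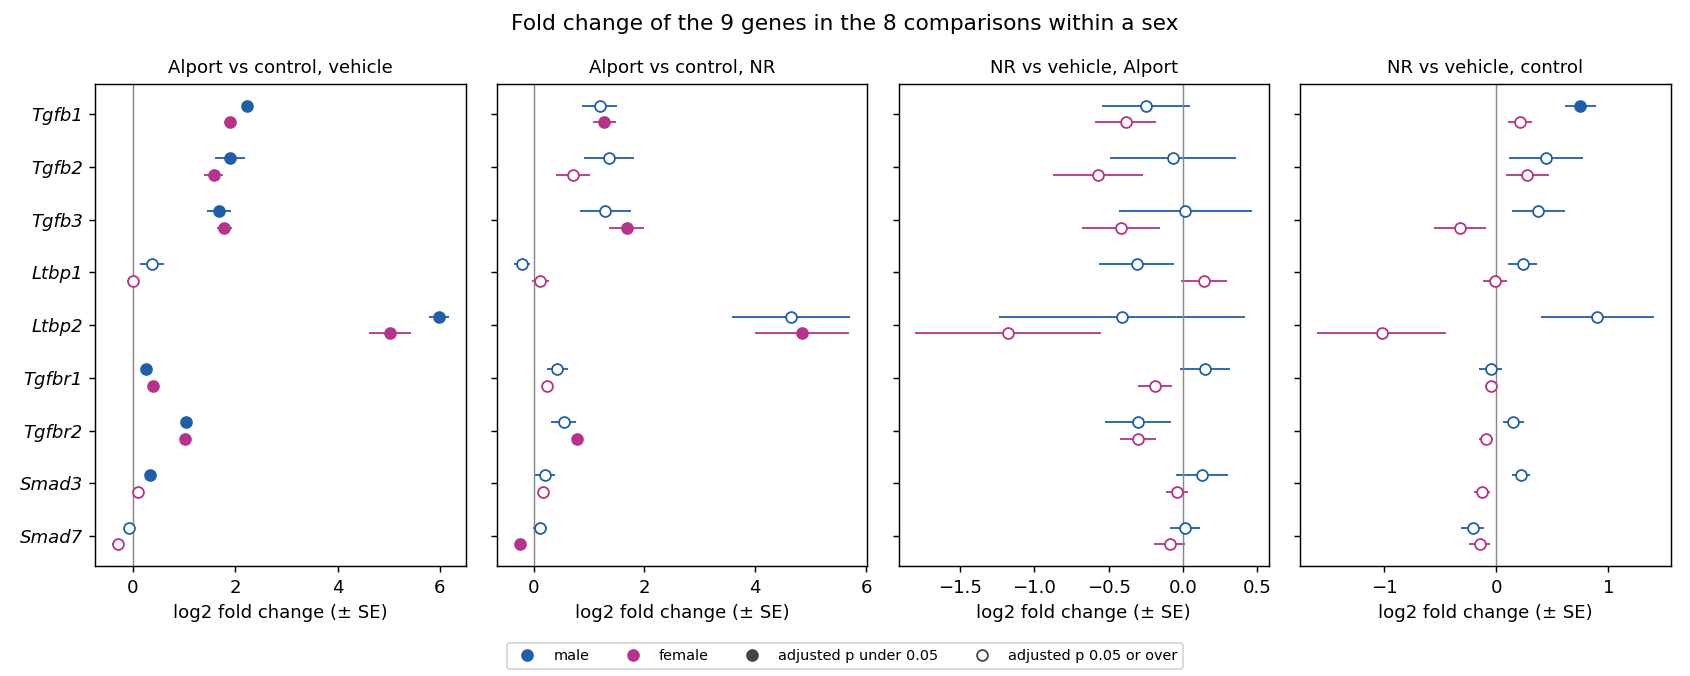
Log2 fold change (horizontal axis, ± SE, with a different range in each panel) of the 9 genes (vertical axis) in 8 comparisons within a sex, from edgeR fits of 8 mice each with TMM scaling. Filled points have an adjusted p under 0.05, and Ltbp2 is farthest from 0 in both panels that compare Alport with control mice. The vehicle-treated Alport mice serve in 2 panels, as do the other groups, so the panels are not independent.

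NR was given to ask whether raising NAD+ alters the course of the disease, and the third question was what it did to the 9 genes in Alport mice. In males, edgeR called 0 of the 9 genes, with 0 at an unadjusted p under 0.05, and DESeq2 and limma-voom called 0 as well. Of all 15500 genes, 0.0% passed in edgeR, 785 had an unadjusted p under 0.05, and DESeq2 called 62. Tgfb1 was at 64.0, 24.7, 24.9 and 27.0 CPM in NR-treated male Alport mice, and Ltbp2 at 155, 15.3, 4.53 and 28.0 CPM. Tgfbr2 stood at 208, 106, 98.6 and 124 CPM, Tgfb2 at 12.3, 4.40, 3.15 and 5.01 CPM, and Tgfb3 at 11.1, 2.32, 3.19 and 5.15 CPM. Replicate 1 was above all 4 vehicle-treated male Alport mice in each of these genes, while the other 3 mice were below all 4 in Tgfb1, Ltbp2 and Tgfbr2. Replicate 1 was the highest of its group in 9 of the 9 genes.

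That mouse also stood apart in markers of macrophages, fibroblasts and injured tubule. Its macrophage markers summed to 959 CPM, against 290.4, 189 and 356 CPM in replicates 2, 3 and 4, and its fibroblast markers to 356 CPM, against 121, 176 and 171 CPM. Markers of injured tubule summed to 10490.0 CPM, against 3688, 4019 and 2985 CPM. Most of this sum was Spp1, with 4903 of 5296 CPM in the group mean. The proximal tubule markers did not single it out, with 4331 CPM beside 10555, 3204 and 10376 CPM in the others. Pairs of libraries were also compared by their counts, where a larger chi-square means less alike. Per degree of freedom, it was 140.92 and 171.5 for replicate 3 with replicates 2 and 4, and 24.42 between these. Replicate 1 had 157.66 and 161.56 with replicates 2 and 4, and 117.08 with replicate 3. By this measure the group was not 3 similar mice and 1 apart. The part of these differences in the levels of the 9 genes was not tested.

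The comparison was repeated without male Alport NR replicate 1, a choice made after the values were seen. Of 15662 genes, 2.43% then passed, and Tgfb1 (−0.70 ± 0.105, log2, SE; adjusted p = 0.0266) and Tgfbr2 (−0.59 ± 0.122; adjusted p = 0.0473) were lower on NR, so that 2 of the 9 genes passed. Ltbp2 had a log2 fold change of −2.06 ± 0.492 (adjusted p = 0.0642). With all 8 mice the values were −0.25 ± 0.294 for Tgfb1, −0.30 ± 0.222 for Tgfbr2 and −0.41 ± 0.826 for Ltbp2. Without replicate 3 instead, 0 of the 9 genes passed, with −0.11 for Tgfb1, −0.18 for Tgfbr2 and −0.02 for Ltbp2. The call for Tgfb1 and Tgfbr2 thus rested on leaving out a single mouse, replicate 1.

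In female Alport mice, NR also gave 0 calls among the 9 genes in edgeR, DESeq2 and limma-voom, with 1 gene, Tgfbr2, at an unadjusted p under 0.05, beside 0.477% of all 15712 genes. These 75 genes became 9 without female Alport vehicle replicate 4, 166 without female Alport NR replicate 1 and 728 with DESeq2. Tgfb1 was at 35.8, 41.8, 25.2 and 19.7 CPM in the NR-treated mice and Ltbp2 at 58.1, 42.8, 10.8 and 5.02 CPM. Tgfbr2 stood at 139.6, 135, 108 and 111 CPM. Replicates 3 and 4 were below every vehicle-treated female Alport mouse in all 3 genes, while replicates 1 and 2 lay within or near their range. The log2 fold change was −0.39 ± 0.208 (SE; adjusted p = 0.372) for Tgfb1, −1.17 ± 0.625 (adjusted p = 0.367) for Ltbp2 and −0.30 ± 0.123 (adjusted p = 0.262) for Tgfbr2. Of the 9 genes, 8 had a negative value, and the positive one, Ltbp1 at 0.14, turned to −0.04 on unscaled libraries, which moved the median of all genes to −0.16 and the split of called genes from 61 higher and 14 lower to 60 and 48. The macrophage markers of these mice summed to 568, 412, 204 and 92.3 CPM and the fibroblast markers to 263, 233, 176 and 132 CPM, lowest in the same replicates 3 and 4 as Tgfb1 and Ltbp2. Their part in those levels was not tested.

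The difference in the NR effect between the sexes was tested in the 16 Alport mice. edgeR called 0 of the 9 genes, with 0 at an unadjusted p under 0.05 and 0 by DESeq2 and limma-voom. Over all 16189 genes, 0.0% passed, 363 had an unadjusted p under 0.05, and DESeq2 called 1.

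NR was given to control mice as well, which are labelled Col4a3+/-. The male comparison includes NR replicates 1 and 3, whose genotype label Col4a3 alone does not settle. In males, 1 of the 9 genes passed, Tgfb1, which was higher on NR. Of all 14696 genes, 4.53% passed, 3.07% as higher and 1.46% as lower. These 666 genes became 74 without male control vehicle replicate 1 and 1886 without male control NR replicate 4, so the share itself hangs on single mice. The NR-treated male controls had 17.8, 18.2, 14.0 and 12.5 CPM of Tgfb1, all above the 4 vehicle-treated controls and all below the 8 male Alport mice of either treatment. The log2 fold change was 0.75 ± 0.140 (SE; adjusted p = 0.0213). This call was lost in 1 fit of all 32 mice (adjusted p = 0.0577), in a fit with a replicate block (adjusted p = 0.0571) and without male control vehicle replicate 1, 2 or 4 or male control NR replicate 1 (adjusted p of 0.0544–0.0762 over these 4).

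The remaining genes did not pass in male controls. Ltbp2 was at 0.807, 4.44, 1.56 and 1.46 CPM on NR, with replicate 2 the highest and a log2 fold change of 0.90 ± 0.502 (SE; adjusted p = 0.308). Without replicate 2 the change was 0.23. Smad3, at 42.3–48.1 CPM on NR, lay above all vehicle-treated male controls, with a change of 0.22 ± 0.0806 (adjusted p = 0.140), and Smad7 had −0.21 ± 0.105 (adjusted p = 0.253). Markers also moved in this comparison: 7 of 8 endothelial markers rose, as did 4 of 6 markers of injured tubule, 2 of 8 of macrophages and 2 of 7 of fibroblasts, and 1 of 8 proximal tubule markers fell. The injured tubule markers summed to 604, 530.04, 664 and 524 CPM in vehicle-treated and 1814, 1256, 1586 and 719.9 CPM in NR-treated male controls. Most of these sums was Spp1, with a mean of 567.5 CPM on vehicle and 1298 CPM on NR. The fibroblast markers summed to 93.5, 83.0, 102 and 76.6 CPM on NR, above every vehicle-treated male control. The part of these in the rise of Tgfb1 was not tested.

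In female controls on NR, edgeR, DESeq2 and limma-voom called 0 of the 9 genes, with 0 at an unadjusted p under 0.05, while 6.18% of all 14951 genes passed. These 924 genes became 395 without female control NR replicate 1 and 18 in 1 fit of all 32 mice. On unscaled libraries the split of called genes went from 584 higher and 340 lower, the latter 2.27% of genes, to 245 and 689. Tgfb1 was at 12.3, 13.7, 12.03 and 13.7 CPM, which overlaps the vehicle-treated females, and had a log2 fold change of 0.21 ± 0.105 (SE; adjusted p = 0.251). Ltbp2 was at 2.42, 0.567, 0.380 and 0.670 CPM, with a change of −1.02 ± 0.576 (adjusted p = 0.318), and replicate 1 stood apart as the highest. Its change was −1.92 without that mouse and −0.47 without female control vehicle replicate 3. Tested in the 16 control mice, the NR effect in females minus that in males gave 0 calls among the 9 genes in edgeR, DESeq2 and limma-voom, with 5 at an unadjusted p under 0.05, beside 0.683% of 15379 genes. These 105 genes became 22 without female control NR replicate 3, 7 in 1 fit of all 32 mice and 504 with DESeq2. Smad3 (−0.33 ± 0.0968, log2, SE; adjusted p = 0.112) and Tgfb1 (−0.52 ± 0.167; adjusted p = 0.139) came nearest, and without male control NR replicate 4 both passed, with −0.37 (adjusted p = 0.0485) and −0.63 (adjusted p = 0.0293), while the calls among all genes rose to 677.

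Whether NR acts differently in Alport and control mice was tested within each sex. In males, edgeR called 0 of the 9 genes, with 1 (Tgfb1) at an unadjusted p under 0.05 and 0 by DESeq2 and limma-voom. Over all 15800 genes, 0.0% passed, 1398 had an unadjusted p under 0.05, and DESeq2 called 20. The NR effect on Tgfb1 in Alport minus that in control mice was −1.02 ± 0.345 (log2, SE; adjusted p = 0.447). Without male Alport NR replicate 1, 3 of the 9 genes passed beside 4.91% of 15942 genes. These were Tgfb1 (−1.46 ± 0.174, adjusted p = 0.00142), Tgfbr2 (−0.75 ± 0.145, adjusted p = 0.00834) and Ltbp2 (−2.95 ± 0.759, adjusted p = 0.0364). In females, edgeR called 0 of the 9 genes, with 2 (Tgfb1 and Tgfb2) at an unadjusted p under 0.05 and 0 by the other tools, and 0.0% of all 16064 genes, of which 1521 had an unadjusted p under 0.05 and DESeq2 called 30. Without female Alport NR replicate 1, 45 genes passed. The value for Tgfb1 was −0.62 ± 0.2497 (adjusted p = 0.475) and that for Tgfb2 −0.87 ± 0.374 (adjusted p = 0.490).

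The last question was how far Alport and control mice differ when both receive NR. These comparisons share their mice with the preceding ones. In males, edgeR called 0 of the 9 genes, with 6 at an unadjusted p under 0.05 and 3 by DESeq2, while limma-voom called 0. Of all 14884 genes, 0.0% passed in edgeR, 3214 had an unadjusted p under 0.05, and DESeq2 called 1381. With a replicate block edgeR called 377 of them, and with no filter 191 of 22374. Ltbp2 had a log2 fold change of 4.65 ± 1.07 (SE; adjusted p = 0.0798), Tgfb1 1.20 ± 0.315 (adjusted p = 0.0923) and Tgfbr2 0.54 ± 0.229 (adjusted p = 0.213). The 4 Alport mice were above the 4 controls in Tgfb1 and Ltbp2, but for Ltbp2 only just, with 4.53 CPM in Alport replicate 3 and 4.44 CPM in control replicate 2. In 1 fit of all 32 mice, 6 of the 9 genes passed, beside 4565 of all 16469 genes. Among the 6 were Ltbp2 (adjusted p = 0.000509) and Tgfb1 (adjusted p = 0.000797). Without male Alport NR replicate 1 the 2-group fit called 0 of the 9, beside 0.494% of 14965 genes, with 2.99 for Ltbp2 (adjusted p = 0.0928) and 0.74 for Tgfb1 (adjusted p = 0.0835).

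In NR-treated females, 5 of the 9 genes passed, beside 27.5% of all 15109 genes, 14.4% as higher and 13.1% as lower. Higher in Alport mice were Ltbp2 (4.84 ± 0.853, log2, SE; adjusted p = 0.00273), Tgfb3 (1.68 ± 0.323; adjusted p = 0.00419), Tgfb1 (1.28 ± 0.208; adjusted p = 0.00194) and Tgfbr2 (0.78 ± 0.0963; adjusted p = 0.000539). With limma-voom the call for Ltbp2 was lost (adjusted p = 0.0961). In edgeR its change was 5.75 without female control NR replicate 1 and 4.28 without female Alport NR replicate 1. Smad7 was lower, at 27.7, 27.1, 27.2 and 25.0 CPM in Alport mice and 35.4, 30.5, 31.2 and 33.2 CPM in controls, which do not overlap. Its change of −0.25 ± 0.0810 (adjusted p = 0.0441) was near the threshold and shrank to −0.05 (adjusted p = 0.677) on unscaled libraries, which moved the median of all genes from 0.02 to 0.21 and the split of called genes from 2171 higher and 1985 lower to 4136 and 837. It was also lost in 7 of the 8 fits without 1 mouse, all but that without female control NR replicate 2. Tgfb2 was at 8.01, 8.19, 5.32 and 2.81 CPM in Alport mice and 3.17, 4.33, 3.86 and 3.83 CPM in controls, where Alport replicate 4 was the lowest of all 8. Its change of 0.71 ± 0.308 did not pass (adjusted p = 0.113), and without that mouse it was 0.95 (adjusted p = 0.00465). Cell type markers moved in this comparison too: 6 of 6 injured tubule, 6 of 6 podocyte, 7 of 8 macrophage, 6 of 7 fibroblast and 4 of 8 endothelial markers rose, and 8 of 8 proximal tubule markers fell. Their part in the changes of the 5 genes was not tested. The shares of the binding proteins spread widely on NR, with Ltbp2 making up 26.2%–85.7% of the pair in female and 33.2%–93.8% in male Alport mice.

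Beside the 9 genes, 5 lists of other genes of the pathway were counted, in vehicle-treated Alport compared with control mice, where 26.8% of all genes were called higher and 24.2% lower in males and 24.0% and 21.8% in females. Of 14 genes for storage and activation of latent TGF-β, 11 rose and 1 fell in each sex, with a median log2 fold change of 0.94 in males and 0.64 in females. Fbn1, which encodes the microfibril protein fibrillin-1, rose by 3.33 ± 0.169 and 2.42 ± 0.184 (SE). Dcn and Bgn, which encode the proteoglycans decorin and biglycan, rose by 2.91 ± 0.235 and 2.72 ± 0.176 in males and by 1.97 ± 0.134 and 2.22 ± 0.209 in females. Emilin1, for a protein of elastic fibres, rose by 2.68 ± 0.147 and 1.67 ± 0.182.

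Of 17 TGF-β target genes, 17 rose in males and 15 in females, and none fell, with a median of 2.86 and 1.91. Timp1, an inhibitor of matrix metalloproteinases, was at 0.0427–0.285 CPM in male controls and 16.03–23.7 CPM in male Alport mice, and rose by 7.08 ± 0.311 in males and 5.33 ± 0.366 in females. Col1a1 and Col3a1, which encode fibrillar collagens, rose by 5.05 ± 0.187 and 4.11 ± 0.269 in males and by 3.96 ± 0.308 and 3.50 ± 0.353 in females. Lox, the gene of a collagen crosslinking enzyme, rose by 4.32 ± 0.232 and 2.89 ± 0.313. Several of these are also made by fibroblasts, whose markers rose with them, and which part each has was not tested.

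Of 12 genes for SMAD proteins and their regulators, 5 rose and 3 fell in males and 6 rose and 4 fell in females, with medians of 0.21 and 0.13, beside 51.0% and 45.8% of all genes called in either direction. Pmepa1, a feedback inhibitor, rose by 1.11 ± 0.0975 and 1.002 ± 0.102, and the corepressor gene Tgif1 by 1.10 ± 0.124 and 1.20 ± 0.142. The ubiquitin ligase gene Smurf1 rose by 0.70 ± 0.0894 and 0.48 ± 0.0743, and the corepressor gene Skil by 0.52 ± 0.0720 and 0.33 ± 0.109. These 4 have the largest changes among the genes called the same way in both sexes. Chosen after their values were seen, Zfyve9 (−0.34 and −0.37) and Ppm1a (−0.36 and −0.32) fell in both sexes, Smurf2 (−0.29) fell in males, and Smad6 (−0.42) and Nedd4l (−0.32) fell in females. Of 6 genes for co-receptors and receptor modulators, 4 rose and 1 fell in males, 2 rose and 1 fell in females, with medians of 0.71 and 0.30. The co-receptor gene Cd109 rose by 1.66 ± 0.431 and 1.69 ± 0.218 and the type I receptor gene Acvrl1 by 1.02 ± 0.122 and 0.57 ± 0.101, while Tgfbrap1 had −0.42 ± 0.0880 and −0.37 ± 0.0777.

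In the related BMP and activin branch, 7 of 23 tested genes were higher and 6 lower in males, 6 of 24 higher and 7 lower in females, and the medians were −0.02 and −0.06. These counts are near the shares of all genes in either direction. Grem1, a BMP antagonist, rose by 4.42 ± 0.210 and 3.52 ± 0.426. The activin subunit genes Inhba (3.23 ± 0.570 and 1.81 ± 0.356) and Inhbb (2.59 ± 0.266 and 1.94 ± 0.272) rose as well, and Smad9, a SMAD of the BMP branch, had −1.01 ± 0.360 and −1.41 ± 0.324. Among the 9 genes, the ligands and Ltbp2 thus moved in the direction of the target genes, whereas Smad7 did not share the rise of Pmepa1.

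The same lists were counted for NR. In Alport mice 0 genes of the 5 lists passed in either sex by edgeR, beside 0.0% of all 15500 genes in males and 0.477% of 15712 in females. In male controls, where 3.07% of all genes were called higher and 1.46% lower, 7 of 16 tested target genes were higher on NR, among them Timp1 (2.92 ± 0.523), Lox (2.26 ± 0.355), Tgfbi (1.27 ± 0.224) and Cdkn1a (1.22 ± 0.270). In the storage list 4 of 14 were higher, namely Dcn (1.43 ± 0.299), Emilin1 (1.005 ± 0.186), Bgn (0.69 ± 0.138) and Ltbp4 (0.39 ± 0.0695), and so were 2 of 6 co-receptor genes, Eng (0.61 ± 0.0688) and Tgfbr3 (0.56 ± 0.132). Of 22 tested genes of the BMP branch 1 was higher, Grem1 (1.59 ± 0.359), and 2 were lower, Acvr2b (−0.99 ± 0.233) and Kcp (−0.66 ± 0.154). Of 12 genes for SMAD proteins and their regulators 0 passed. In female controls 1 gene of the lists passed, Ltbp3, at −0.30 ± 0.0615, beside 6.18% of all 14951 genes and 2.27% as lower. The call for Tgfb1 in NR-treated male controls, lost in the fits named with it, thus stood beside those for 7 target genes in the same 8 mice. These calls share the limits of that comparison: 666 called genes became 74 without 1 mouse, and 7 of 8 endothelial, 4 of 6 injured tubule and 2 of 7 fibroblast markers rose in it. The part of those cells in the list genes was not tested. The calls also rest on male control NR replicates 1 and 3, whose genotype label Col4a3 alone does not settle. In the 4 male controls on NR, Dcn was at 40.5, 18.2, 33.5 and 15.2 CPM and Cdkn1a at 11.8, 5.695, 10.6 and 6.12 CPM. Dcn, Cdkn1a and Lox were highest in replicates 1 and 3, while Timp1 and Tgfbi were highest in replicate 2. Among the interactions 1 gene of the lists passed, Col1a2, whose Alport effect in females minus that in males was −1.14 ± 0.248 (adjusted p = 0.0486). It stood beside 0.532% of all 16152 genes. Those 86 genes became 23 without female Alport vehicle replicate 4 and 5 in 1 fit of all 32 mice.

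In the RefSeq annotation of the build mm10 the ligand genes lie at chr7:25687002-25705077 (Tgfb1), chr1:186622787-186709697 (Tgfb2) and chr12:86056743-86079041 (Tgfb3). Ltbp1 is at chr17:75005480-75392512 and Ltbp2 at chr12:84783212-84876558. The receptor genes are at chr4:47353222-47414926 (Tgfbr1) and chr9:116087695-116175363 (Tgfbr2), Smad3 is at chr9:63646766-63757994 and Smad7 at chr18:75367365-75395935. The strand setting of the counts is not given, so reads of genes on the opposite strand cannot be told apart from theirs. In the GENCODE annotation, Ltbp2 overlaps the antisense gene D030025P21Rik, which had at most 19 counts in a mouse and a median of 1.0. Genes overlapping Tgfb2 (Gm29491) and Tgfb3 (Gm37804 and Gm48008) are not in the table.

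Genes with the most similar pattern were searched for the 3 members that vary most over the 8 group means. The measure was the root mean square difference of the group means of log2 CPM, each gene centred on its own mean, among 14361 genes. For Ltbp2, whose group means had an SD of 2.65, the nearest were Aoc1 (0.58), Vcam1 (0.68) and Col1a1 (0.71). Vcam1 and Col1a1 are on the lists of injured tubule markers and target genes. For Tgfb1 (SD 0.87) they were Anxa2 (0.07), Prex1 (0.07) and Map1b (0.08), and for Tgfb3 (SD 0.80) Mmp15 (0.12), Stx1a (0.14) and Megf6 (0.14). At the other end, the group means of Ltbp1 had an SD of 0.11, those of Smad3 0.12, Smad7 0.15 and Tgfbr1 0.16.

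Since Tgfb1 and Ltbp2 rose together, the bases before their starts were compared. Promoter sequences of RefSeq (GRCm38.p6) were found for 7 of the 9 genes, in 9 entries, and not for Tgfb3 and Smad7. The 250 bases upstream of each start were searched on both strands for the SMAD box CAGAC, which reads GTCTG on the opposite strand, the SMAD palindrome GTCTAGAC, the AP-1 site TGANTCA, the GC box GGGCGG, which reads CCGCCC on the opposite strand, and the TATA box TATAAA, which reads TTTATA there. The palindrome holds no full SMAD box. Each start is that of a promoter entry and need not be the end of the locus given above. The window of Tgfb2 (chr1:186705990-186706239) lies within its locus, as does 1 each of Ltbp1 and Tgfbr1. The windows of Ltbp2 and of the other Ltbp1 entry overlap the ends of their loci. Of 32851 promoters, 42.2% hold a SMAD box, 0.167% the palindrome, 6.75% an AP-1 site, 32.7% a GC box and 12.4% a TATA box. Ltbp2 (chr12:84876492-84876741, minus strand) had 2 SMAD boxes, starting 205 and 176 bases before the start, and 2 GC boxes, with 61.6% G and C. Tgfb1 (chr7:25686752-25687001, plus strand) had 0 SMAD boxes and 5 GC boxes, with 75.2% G and C. Tgfb2 had 2 SMAD boxes and 1 TATA box, Tgfbr2 had 1 SMAD box, Smad3 had 0, and the pairs of entries for Ltbp1 and Tgfbr1 had 1 and 2, and 0 and 1. The palindrome and the AP-1 site matched in none of the 9 entries. A match describes letters only. The sequences of the gene with the largest change and of the predominant ligand are shown 5′ to 3′, with capitals for the SMAD box.
Ltbp2: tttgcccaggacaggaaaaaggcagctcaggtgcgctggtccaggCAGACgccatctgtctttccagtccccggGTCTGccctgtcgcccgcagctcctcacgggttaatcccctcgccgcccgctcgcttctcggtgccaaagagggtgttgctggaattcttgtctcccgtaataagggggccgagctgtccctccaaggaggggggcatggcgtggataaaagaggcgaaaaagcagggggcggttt
Tgfb1: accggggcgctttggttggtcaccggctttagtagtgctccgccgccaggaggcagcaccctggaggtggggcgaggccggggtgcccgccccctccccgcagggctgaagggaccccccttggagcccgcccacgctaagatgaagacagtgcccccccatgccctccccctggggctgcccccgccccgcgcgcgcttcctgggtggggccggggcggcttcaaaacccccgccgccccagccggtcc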

How the data were processed

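Isolated kidney cortex of 32 mice was sequenced as poly(A) RNA. The authors deposited a table of raw counts per gene and mouse, made with the BioJupies service on the build mm10; the aligner version, annotation and strand setting are not given. The deposited second table holds log10 values, which equal log10(CPM + 1) of the counts with a largest difference of 8.88e-16, so the counts were used throughout. Of 32544 genes, 7938 had 0 counts in every mouse. The 9 genes are those with the given symbols. The members and lists were chosen with earlier results of these data known.

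Genes were filtered with filterByExpr (minimum count of 10) within each comparison and tested with edgeR 4.0.16 (quasi-likelihood F-test, TMM scaling, Benjamini-Hochberg adjusted p under 0.05) in R 4.3.3. Comparisons of a pair of groups used those 8 mice and interactions used 16. Alternatives were DESeq2 1.42.0, limma-voom (limma 3.58.1), RLE size factors, no filter, at least 10 counts in every mouse, 1 fit of all 32 mice, a replicate block, and omission of each mouse in turn. Library sizes without scaling factors were added after the data had been seen. The code was tested on simulated counts. Levels are CPM with TMM factors (0.828–1.25) over all 32 mice, divided by GENCODE vM21 exon length where genes are compared. The named lists were markers of 10 cell types and 5 lists of related pathway genes. Named from a pathway list are up to 4 genes with the largest absolute log2 fold change among those called the same way in both sexes on vehicle, and up to 4 called for NR or an interaction; others are marked as chosen after their values were seen. Tables and figures were made with Python 3.11.15, pandas 2.3.3, numpy 2.4.6 and matplotlib 3.10.9.

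The median depth was 22071395 counts. The values of genes at a few CPM, such as Ltbp2 in controls, rest on few reads and are less precise. Of 48 pairs of libraries within groups, none was a copy of another, with a lowest chi-square of 7.96 per degree of freedom.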

Additional observations from a re-analysis of the deposited data

Results flagged for a closer look

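In each of the 8 groups, a mouse apart from the other 3 was looked for in the 9 genes with Dixon's ratio of gap to range, which by chance marks about 1 in 20 groups. Of 72 groups of 4, 5 held such a mouse. Male Alport NR replicate 1 had 64.03 CPM of Tgfb1 (ratio 0.941) and 154.7 CPM of Ltbp2 (ratio 0.843), the highest of its group in both. Male Alport vehicle replicate 3 had 22.48 CPM of Ltbp1 (ratio 0.83), and female Alport NR replicate 4 had 18.46 CPM of Ltbp1 (ratio 0.897). Female control NR replicate 1 had 2.425 CPM of Ltbp2 (ratio 0.858). No interaction of sex, genotype or treatment passed for any of the 9 genes in the edgeR fits with TMM scaling and all mice of a comparison.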

How the results depend on the processing

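Each alternative was compared with the edgeR fit of TMM-scaled counts. A log2 fold change counted as the same when its sign and its call held, whatever its size. A gained call counted as stronger and a lost call as weaker. Of 91 log2 fold changes, RLE size factors left all 91 the same in this sense. DESeq2 left 87 the same and made 4 stronger, limma-voom left 89, no filter 89, the fit of all 32 mice 78 and library sizes without scaling factors 74. With at least 10 counts in every mouse not all could be fitted; 85 were the same, 1 stronger, 1 weaker and 1 reversed. In unscaled CPM, the level of every gene in a mouse is multiplied by the TMM factor of that mouse (0.828–1.25), and group means move accordingly. Unless the construction of an alternative shows it, the cause of a shift was not tested.

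Library sizes without scaling factors reversed the log2 fold change of Smad7 in vehicle-treated Alport against control males (0.2668), of Tgfb3 (−0.01591) and Smad7 (−0.06754) for NR in Alport males, and of Ltbp1 in NR-treated Alport against control males (0.08428). They also reversed Ltbp1 in vehicle-treated Alport against control females (0.2634) and for NR in Alport females (−0.03533), and Tgfbr2 in female against male controls (0.06848). Scaling shifts every gene of a comparison by one amount, which shows why small values turn. The genes called among the 9 became 6 between the sexes and 1 (Smad3, −0.43, adjusted p = 0.0479) for the interaction of sex and NR in controls. In vehicle-treated males Ltbp1 (0.73, adjusted p = 0.0274) and Smad7 (adjusted p = 0.0289) joined the called genes, and in vehicle-treated females Smad3 (0.37, adjusted p = 0.00343). In NR-treated females Tgfbr1 (0.43, adjusted p = 0.00522) and Smad3 (0.36, adjusted p = 0.00979) joined and Smad7 was lost (adjusted p = 0.677).

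Among other choices, limma-voom gave −0.154 for Tgfb3 under NR in Alport males, at least 10 counts in every mouse gave 0.01602 for Ltbp1 in vehicle-treated Alport against control females, and the fit of all 32 mice gave 0.001741 for Ltbp1 under NR in control females. Each has the other sign. In NR-treated Alport against control males, DESeq2 called 3 of the 9 genes (Tgfb1, Tgfb2 and Ltbp2), the fit of all 32 mice 6 and no filter 1 (Ltbp2, adjusted p = 0.0485). Over all genes, these settings called 1381 of 14884, 4565 of 16469 and 191 of 22374. The fit of all 32 mice called 0 for NR in control males and 0 between the sexes, and it called Smad7 in vehicle-treated females (−0.33, adjusted p = 0.0112). In NR-treated females, Ltbp2 was lost with limma-voom (adjusted p = 0.0961), and Tgfbr1 was called by DESeq2 (adjusted p = 0.038) and with at least 10 counts (adjusted p = 0.041). There Smad7 was lost with no filter (adjusted p = 0.0509) and with at least 10 counts (adjusted p = 0.0572), which also left Ltbp2 untested.

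With a replicate block in the fit, Tgfb3 under NR in Alport males was −0.1862, NR in control males called 0 of the 9 genes (Tgfb1, adjusted p = 0.0571), and the sexes differed in 1 (Smad3; Tgfb2 was lost, adjusted p = 0.0593). Smad7 was called in vehicle-treated females (adjusted p = 0.0294) and lost in NR-treated females (adjusted p = 0.079). Replicate numbers were checked for pairing across groups: over 36 pairs r was −0.163 to 0.256, with 10 over 0.1 and 15 best with their own number. Whether these 15 exceed chance was not tested. The labels do not name the numbers as pairs, and they were not taken as pairs in the main fits.

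Leaving out 1 mouse at a time, 10 log2 fold changes crossed 0. For NR in Alport males the ranges were −0.6334 to 0.2118 for Tgfb2, −0.5865 to 0.2607 for Tgfb3, −0.4322 to 0.006835 for Ltbp1, −0.05634 to 0.2324 for Tgfbr1, −0.03542 to 0.2595 for Smad3 and −0.04123 to 0.04499 for Smad7. Ltbp1 had −0.06384 to 0.05295 in vehicle-treated Alport against control females, −0.02097 to 0.1977 for NR in Alport females, −0.0601 to 0.05936 for NR in control females and −0.03764 to 0.182 in NR-treated Alport against control females. The vehicle-treated males kept 7 called genes in all 8 fits, and the females 6–7.

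The number called for NR in Alport males was 0–2 and for the interaction of NR and genotype in males 0–3, with the highest counts without male Alport NR replicate 1. For NR in control males it was 0–1, with Tgfb1 lost without male control vehicle replicate 1 (adjusted p = 0.0762), 2 (0.0752) or 4 (0.0569) or male control NR replicate 1 (0.0544). Between the sexes it was 1–2, and Tgfb2 was lost without male control vehicle replicate 1 (0.0744), 3 (0.0722) or 4 (0.0541) or female control vehicle replicate 2 (0.0668) or 3 (0.0971). Smad7 was called between the sexes without female control vehicle replicate 3 (0.0304). For the interaction of sex and NR in controls it was 0–2, the latter without male control NR replicate 4.

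In vehicle-treated females Smad7 was called without female control vehicle replicate 3 (adjusted p = 0.0335) or female Alport vehicle replicate 4 (0.0286). In NR-treated females it was lost without female control NR replicate 1 (0.133), 3 (0.0663) or 4 (0.102) or female Alport NR replicate 1 (0.0641), 2 (0.0757), 3 (0.0801) or 4 (0.0546). There Tgfbr1 was called without female Alport NR replicate 3 (0.29, adjusted p = 0.0255).

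With 4 mice a group, small changes of Smad3, Smad7, Tgfbr1 and Ltbp1 can be missed. Ltbp2, Tgfb2 and Tgfb3 in controls are limited by low counts. Transcript levels say nothing of latent or active TGF-β protein, and the cells that carry each transcript were not separated.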
